A study of Mus musculus with 12 samples.

Results

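The genes described here are 8 components of central nervous system myelin: Mbp, Mobp, Mag, Mog, Mal, Cldn11, Cnp and Ugt8a. They were read through every probe whose deposited gene symbol was one of these names, which gave 22 of 45281 probes. Of these, 15 probes, representing 7 of the 8 genes, passed the filter on dim probes and were tested, among 24443 tested probes and 16725 tested genes overall. Neither probe of Mog passed. Each probe was measured in 12 mouse Sonic Hedgehog (SHH) medulloblastomas on Illumina BeadChip arrays, in 3 groups of 4. The A1G primary group came from the primary site in Math1-cre;A1G;Ptch1+/- animals, and the A1G metastatic group held metastatic tumours labelled with those same alleles. The Ptch1het group held tumours of Ptch1+/- mice, so all 3 groups carried 1 mutant Ptch1 allele and the 2 A1G groups also carried Math1-cre and A1G. Math1, also called Atoh1, is a transcription factor of cerebellar granule neuron progenitors, and Math1-cre is active in this lineage, from which SHH medulloblastoma arises. The study set tumours driven by ATOH1 together with aberrant SHH signalling beside Ptch1+/- tumours. The labels leave A1G unexpanded and give neither age nor metastatic site. The genotype of 2 metastases, replicates 2 and 3, is worded in another way than that of the other 2. Nothing says that replicates came from separate animals, so the p-values cover only the spread among these arrays, which may be technical.

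Myelin is a compacted glial membrane wrapped around axons, made by oligodendrocytes in the brain and spinal cord and by Schwann cells in peripheral nerves and nerve roots. Its assembly needs basic proteins that seal the cytoplasmic faces (Mbp, Mobp), adhesion proteins of the immunoglobulin family (Mag, Mog), tetraspan membrane proteins (Mal, Cldn11), and enzymes of the myelin sheath (Cnp, Ugt8a). Mog and Mobp belong to central myelin. Cldn11 belongs to central myelin, to arachnoid barrier cells and to Sertoli cells of the testis, whereas Mbp, Mag, Cnp, Mal and Ugt8a are also made by Schwann cells. Oligodendrocytes use all 8. Oligodendrocyte precursors, the dividing cells from which oligodendrocytes arise, express a different set of genes, and those were used as the contrast.

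The 250 bases upstream of the outermost annotated start site are shown for 4 members whose patterns differed below: Mog and Mobp, which belong to central myelin, and Mag and Mal, which Schwann cells also make. The sequences are those of RefSeq on GRCm38.p6, written 5′ to 3′ on the strand of the gene. Capitals mark 2 motifs searched on both strands, the SOX motif (ACAAAG or ACAATG) and the MYRF motif (CTGGNAC), named for transcription factors of the oligodendrocyte lineage. On the opposite strand ACAAAG reads CTTTGT, and the MYRF motif appears with its letters reversed and complemented.
Mog (chr17:37023399-37023648, minus strand): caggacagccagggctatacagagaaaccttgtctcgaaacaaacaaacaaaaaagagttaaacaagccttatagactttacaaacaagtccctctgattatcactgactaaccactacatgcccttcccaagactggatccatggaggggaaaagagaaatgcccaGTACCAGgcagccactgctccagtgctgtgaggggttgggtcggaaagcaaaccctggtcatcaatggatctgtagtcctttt
Mag (chr7:30914923-30915172, minus strand): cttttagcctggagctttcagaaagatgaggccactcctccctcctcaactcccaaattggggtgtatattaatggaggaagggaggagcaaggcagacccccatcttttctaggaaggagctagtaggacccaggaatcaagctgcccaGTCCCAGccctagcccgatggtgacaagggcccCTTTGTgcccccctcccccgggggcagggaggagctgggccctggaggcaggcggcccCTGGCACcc
Mobp (chr9:120149492-120149741, plus strand): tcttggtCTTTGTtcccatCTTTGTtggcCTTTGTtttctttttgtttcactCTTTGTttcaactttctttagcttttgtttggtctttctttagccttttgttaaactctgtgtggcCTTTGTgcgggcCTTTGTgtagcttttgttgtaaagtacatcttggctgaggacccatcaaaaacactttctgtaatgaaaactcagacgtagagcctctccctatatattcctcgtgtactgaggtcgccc
Mal (chr2:127656696-127656945, minus strand): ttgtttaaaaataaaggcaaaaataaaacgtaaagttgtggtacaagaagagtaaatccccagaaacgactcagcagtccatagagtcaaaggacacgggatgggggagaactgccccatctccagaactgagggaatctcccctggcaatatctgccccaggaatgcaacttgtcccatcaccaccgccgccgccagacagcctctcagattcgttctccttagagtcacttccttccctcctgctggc
The Mog window held 1 MYRF match and no SOX match. In the Mag window there were 1 SOX and 2 MYRF matches, and in the Mobp window 6 SOX matches, all on the opposite strand in a stretch rich in T. The Mal window held neither. Of members not shown, the Cldn11 window also held neither. Windows at a start site other than the outermost held neither motif for Ugt8a, and 1 SOX and 2 MYRF matches for Cnp. Of 32851 promoter windows of this length, 25.2% held the SOX motif and 16.1% the MYRF motif. A match is a match of letters and was not measured as a bound site.

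Signal is given as log2 intensity after background correction and quantile normalization, on which the array median was 7.05. This value is used as the limit below which a probe was not resolved from background. Among 7 markers of the labelled tumour, 5 were above it on all 12 arrays, including Zic1, Barhl1, Gli2 and Ptch1, whereas the single probes of Atoh1 and of Gli1 were above it on none. Of all tested genes, 860 passed between metastatic and primary A1G tumours (5.14%, 742 higher and 118 lower), 1554 between metastatic A1G and Ptch1het tumours (9.29%), and 6 between A1G primary and Ptch1het tumours (0.0359%). A gene passed when its p from limma, adjusted over all tested probes by Benjamini-Hochberg, was under 0.05, and the p-values below come from this fit unless stated. Both comparisons of the metastatic group use the same 4 metastatic arrays. The array number per group limits the precision.

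Myelin genes read higher in metastatic tumours on average, but the arrays within each group differed widely, and most single genes did not pass. Mal, a proteolipid of myelin membranes, was the 1 member of the 7 tested that passed against A1G primary tumours, where 4.44% of all genes were called higher. Mal and Mbp, the major cytoplasmic protein of compact myelin, passed against Ptch1het tumours, 2 of 7 where 5.99% of all genes were called higher. By probe, 2 of 15 tested member probes passed against A1G primary and 3 of 15 against Ptch1het tumours, where 4.82% and 8.8% of all tested probes passed. By the brightest probe of each, all 7 tested members had a positive difference in both comparisons, from 0.50 to 3.35 and from 1.01 to 4.14 on the log2 scale. Another tested Mbp probe was negative in both (-0.197 and -0.0135), as was the second Mag probe (-0.26 and -0.11). The remaining tested member probes were positive. By the brightest probes, the median difference of the 7 members was 1.11 against A1G primary tumours, where the median of all genes was -0.061. It was 1.53 against Ptch1het tumours, where all genes had -0.081. Without metastatic replicate 4 these medians were 0.42 and 0.999, without metastatic replicate 1 they were 1.72 and 2.14, and without metastatic replicate 3 they were 1.68 and 2.07. Without primary replicate 1 the first was 1.67. The groups did not overlap for 2 of 7 members in either comparison, where 13% and 15.7% of all genes did not overlap. In bulk tumour RNA, fewer cells of a type and less RNA per cell cannot be told apart.

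**Figure D1:**
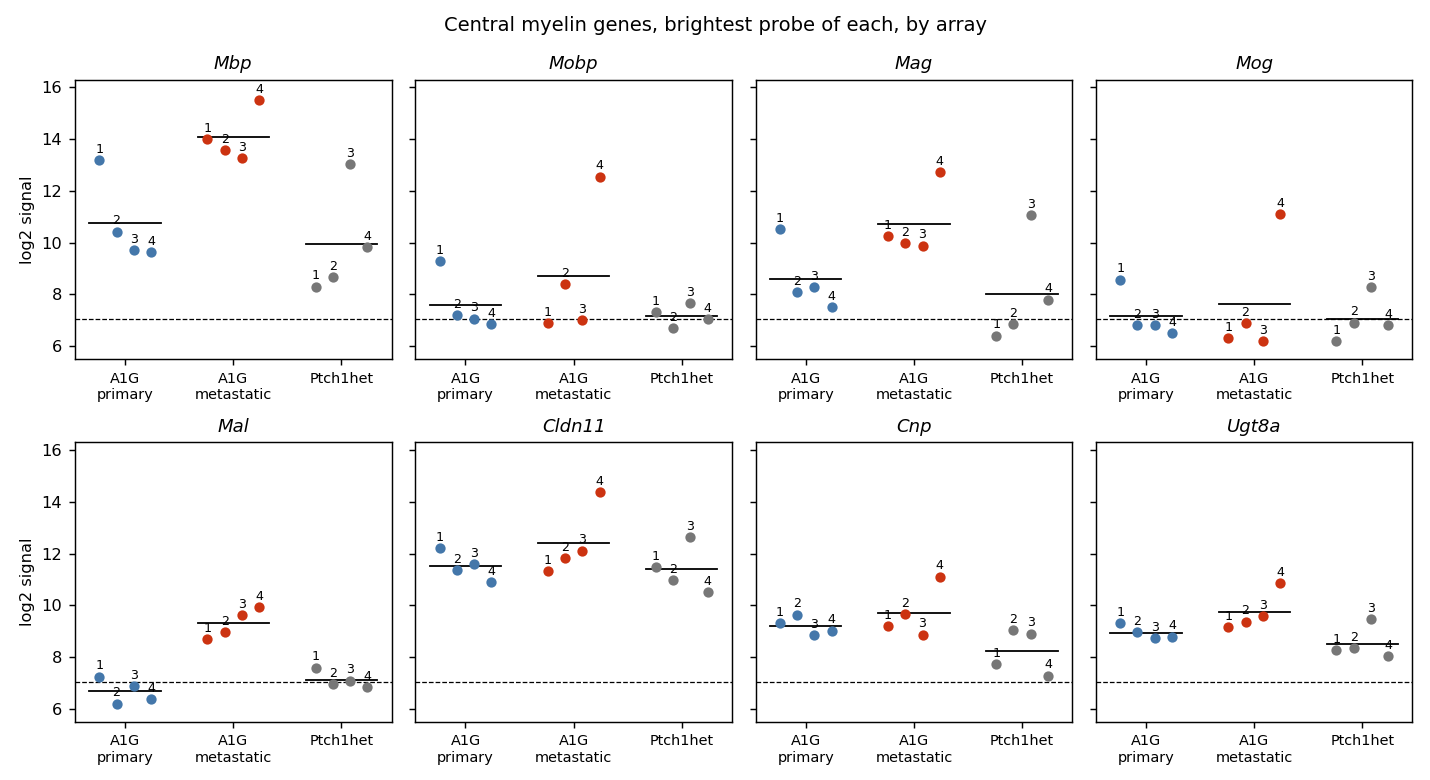
Log2 signal of the brightest probe of each of the 8 members (vertical axis) in A1G primary, A1G metastatic and Ptch1het tumours (horizontal axis). Points are single arrays with their replicate numbers, bars are group means and the dashed line is the array median of 7.05. Mal lies above both other groups in all 4 metastatic arrays, while Mog exceeds the median only in primary replicate 1, metastatic replicate 4 and Ptch1het replicate 3.

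Mbp was measured by 5 probes on chromosome 18. The brightest over all 12 arrays, annotated to transcript variant 7, read 13.20, 10.42, 9.72 and 9.63 in A1G primary replicates 1 to 4. The metastatic replicates read 13.99, 13.59, 13.28 and 15.51, and the Ptch1het replicates 8.30, 8.65, 13.03 and 9.82. Every metastatic array therefore lay above every other array, but primary replicate 1 and Ptch1het replicate 3 came close to the lowest metastatic value. The metastatic mean was 14.09 ± 0.99 (SD, n = 4) against 10.74 ± 1.68 in A1G primary tumours, a difference of 3.35 (SE 0.99, 95% interval 1.20 to 5.496) that did not pass in limma (adjusted p = 0.0804). Across all genes, same-numbered arrays of these groups correlated, but Mbp did not follow this, being highest in primary replicate 1 and in metastatic replicate 4, and by replicate number its differences were 0.79, 3.17, 3.56 and 5.88. With only these 8 arrays in the fit, Mbp passed in limma (adjusted p = 0.0293), and also with the replicate number as a block added (adjusted p = 0.0197), which brought the members that passed to 2. It also passed without primary replicate 1 (difference 4.17, adjusted p = 0.0265) and without Ptch1het replicate 3 (adjusted p = 0.0204).

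Against the Ptch1het mean of 9.95 ± 2.15 (SD, n = 4), Mbp was higher in metastatic tumours by 4.14 (SE 0.99), or 17.7-fold, in limma (adjusted p = 0.0225). This call did not hold without metastatic replicate 2 (adjusted p = 0.0509) or 4 (0.0693), or without Ptch1het replicate 1 (0.0640) or 2 (0.0530).

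The other Mbp probes did not all follow the variant 7 probe, which was the brightest through its metastatic values. In A1G primary and Ptch1het tumours a probe annotated to variant 8 had the higher mean, so the choice of probe was not independent of the group difference. That probe read 11.53 ± 0.36 in A1G primary, 11.33 ± 0.35 in metastatic and 11.34 ± 0.30 in Ptch1het tumours (SD, n = 4) and differed by -0.20 between metastatic and primary tumours in limma (adjusted p = 0.694). A second probe annotated to variant 8 read 9.67, 7.34, 7.01 and 6.34 in primary replicates 1 to 4 and 10.02, 9.01, 9.23 and 11.95 in metastatic replicates. It was thus high in the same primary replicate as the variant 7 probe, and its difference of 2.46 did not pass (adjusted p = 0.139). The 2 probes annotated to variant 2 differed by 1.39 (adjusted p = 0.182) and 0.45 (adjusted p = 0.459), with their highest reading in metastatic replicate 4. With the mean of its 5 probes in place of the brightest, Mbp differed by 1.49 between metastatic and primary tumours (adjusted p = 0.133) and by 1.70 between metastatic and Ptch1het tumours (adjusted p = 0.0554).

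**Figure D2:**
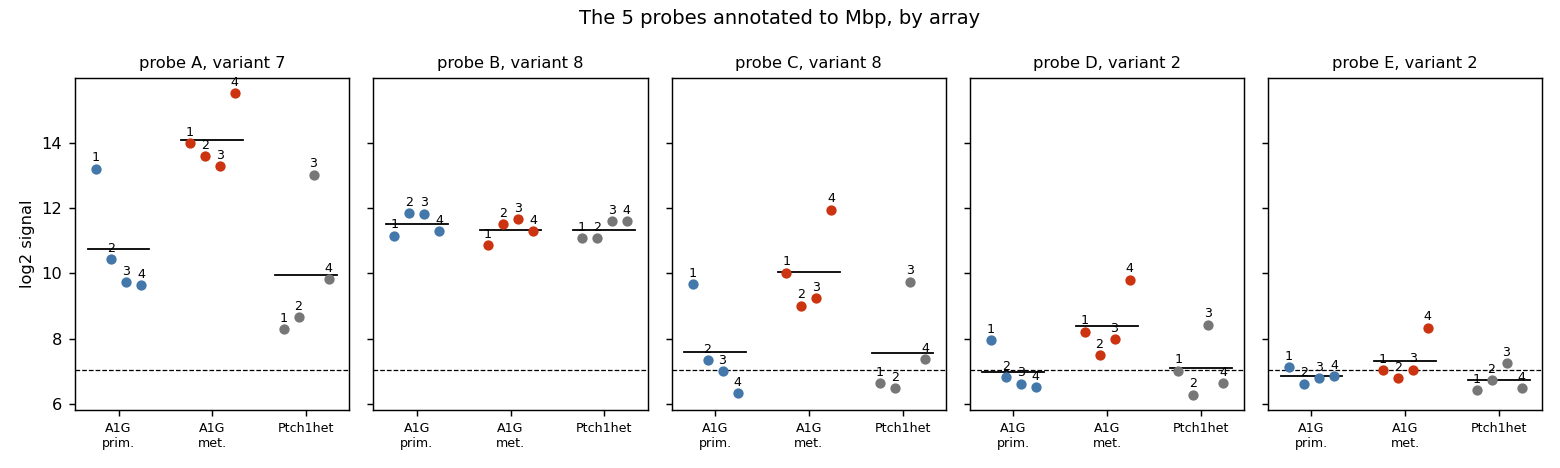
Log2 signal of the 5 Mbp probes (vertical axis), named by the annotated transcript variant, in the 3 groups (horizontal axis). Points are arrays with their replicate numbers, bars are group means and the dashed line is the array median. Probe A spreads from 8.30 to 15.51, whereas probe B, annotated to variant 8, stays between 10.86 and 11.83.

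Mobp, a small basic protein of central myelin, had 5 probes, of which 2 were tested. Its brightest probe read 9.30, 7.21, 7.06 and 6.84 in A1G primary replicates, 6.88, 8.41, 6.997 and 12.55 in metastatic replicates and 7.32, 6.70, 7.65 and 7.05 in Ptch1het replicates. Metastatic replicate 4 stood far above all other arrays, and metastatic replicates 1 and 3 were below the array median. The difference of 1.11 between metastatic and primary tumours (SE 1.00) did not pass in limma (adjusted p = 0.612), and without metastatic replicate 4 it was -0.17. Against Ptch1het tumours it was 1.53 (adjusted p = 0.348), and 0.25 without that array. The other 4 probes also read highest in metastatic replicate 4, at 9.50, 10.93, 11.22 and 7.71.

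Mag, the myelin-associated glycoprotein on the innermost wrap facing the axon (chromosome 7), had the profile nearest to that of Mbp. Its brighter probe read 10.53, 8.08, 8.27 and 7.51 in A1G primary replicates, 10.26, 9.98, 9.89 and 12.74 in metastatic replicates and 6.40, 6.86, 11.07 and 7.79 in Ptch1het replicates. Primary replicate 1 and Ptch1het replicate 3 lay within the metastatic range, and the remaining primary and Ptch1het arrays lay below it. The metastatic minus primary difference was 2.12 (SE 0.97, 95% interval 0.02 to 4.22) and did not pass in limma (adjusted p = 0.276). Against Ptch1het tumours it was 2.69 (SE 0.97, adjusted p = 0.101), and it passed without Ptch1het replicate 3 (3.70, adjusted p = 0.0158). Ptch1het replicates 1 and 2 lay below the array median, so the size of the difference from that group was not resolved. The second Mag probe lay between 6.83 and 7.42 on all arrays.

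Mog, an immunoglobulin-family protein on the outermost myelin surface (chromosome 17), was near background on 9 of 12 arrays. Its brighter probe read 8.57, 6.82, 6.80 and 6.50 in A1G primary replicates, 6.32, 6.90, 6.20 and 11.09 in metastatic replicates and 6.20, 6.91, 8.29 and 6.80 in Ptch1het replicates. Only primary replicate 1, metastatic replicate 4 and Ptch1het replicate 3 exceeded the array median, and the second probe exceeded it on the same 3 arrays, at 8.25, 10.42 and 8.03. In an alternative fit of all probes without the filter, Mog differed by 0.46 between metastatic and primary tumours (SE 0.89, adjusted p = 0.891) and by 0.58 between metastatic and Ptch1het tumours (adjusted p = 0.798).

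Mbp and Mog therefore parted in metastatic replicates 1 to 3. There the variant 7 probe of Mbp read 13.28 to 13.99, above its 13.20 in primary replicate 1, while the brighter Mog probe read 6.20 to 6.90, below its 8.57 in that primary tumour. Mag in those 3 metastases, at 9.89 to 10.26, lay just under its 10.53 in primary replicate 1. Schwann cell genes moved with the metastatic group beside these values. Prx, which encodes periaxin, a cytoskeletal protein of myelinating Schwann cells, read 9.63, 9.37, 9.45 and 9.53 in metastatic replicates and at most 6.65 elsewhere. The mean signal of all 15 listed Schwann cell genes was 9.38 to 9.88 in metastatic, 7.28 to 7.50 in A1G primary and 7.43 to 7.52 in Ptch1het tumours. Of the 13 tested, 6 exceeded the array median on the metastatic arrays only and so entered the test through that group. Of the other 7, 5 rose against A1G primary tumours, where 4.44% of all genes were called higher. Prx and Dhh are among the 6 that entered through the metastatic group. Their place at or below the array median on all 8 non-metastatic arrays therefore follows from how those 6 were set apart. Pmp22, on the same list, exceeded the median on all 12 arrays. It read 12.92 to 13.09 in metastatic, 9.12 to 9.75 in A1G primary and 8.52 to 9.57 in Ptch1het tumours. In the arrays with high Mbp, Pmp22 read 9.75 (primary replicate 1) and 9.49 (Ptch1het replicate 3). What part Schwann cell RNA had in the metastatic values of Mbp and Mag was not tested.

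**Figure D3:**
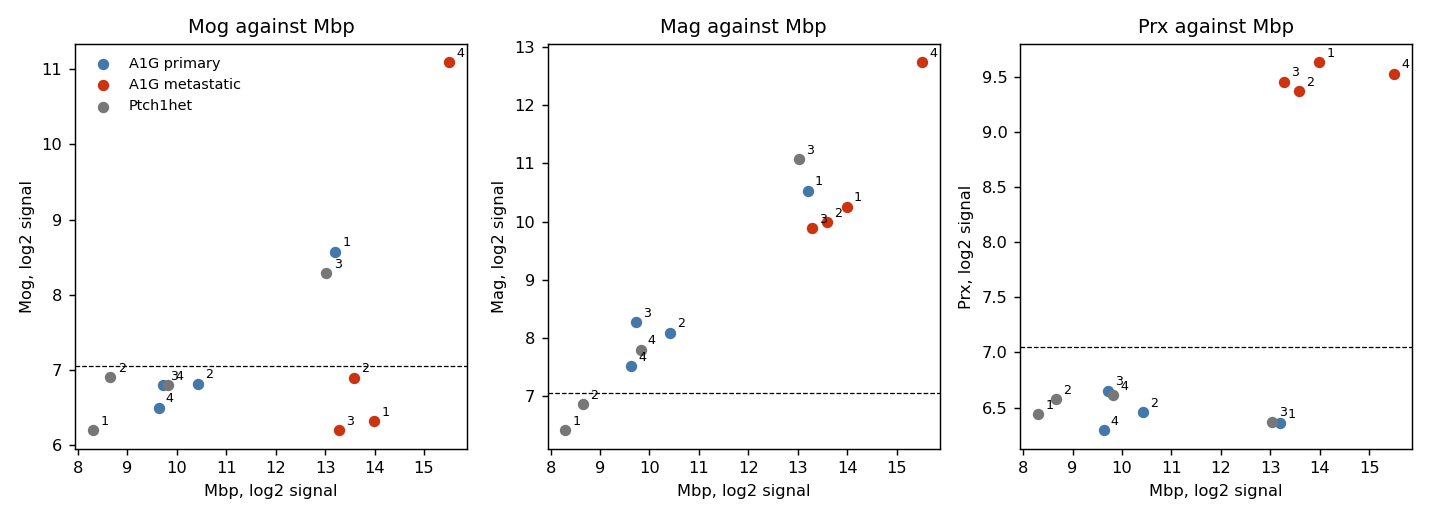
Log2 signal of Mog, Mag and Prx (vertical axes) against that of the brightest Mbp probe (horizontal axes) in each of the 12 arrays, coloured by group and numbered by replicate. The dashed line is the array median of 7.05. Metastatic replicates 1 to 3 combine Mbp above 13 with Mog at 6.90 or less and Prx at 9.37 or more, while primary replicate 1 combines Mbp at 13.20 with Mog at 8.57 and Prx at 6.36.

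Mal (chromosome 2), a tetraspan proteolipid of myelin and of some epithelia, had the smallest adjusted p of the members in both comparisons of the metastatic group. Its brightest probe read 7.25, 6.20, 6.89 and 6.38 in A1G primary replicates, where 3 of 4 arrays were below the array median. It read 8.68, 8.96, 9.63 and 9.93 in metastatic replicates and 7.59, 6.97, 7.09 and 6.84 in Ptch1het replicates. The lowest metastatic array lay above the highest of the others, and Mal was not raised in Ptch1het replicate 3. The metastatic mean of 9.30 ± 0.57 (SD, n = 4) exceeded the A1G primary mean of 6.68 ± 0.48 by 2.62 (SE 0.30) in limma (adjusted p = 0.000138). It exceeded the Ptch1het mean of 7.12 ± 0.33 by 2.18, or 4.53-fold (adjusted p = 0.000573). A second probe rose by 2.09 and 1.90 (adjusted p = 0.000993 and 0.00193), and the third did not pass the filter, with means of 6.61 to 6.82. Mal kept its call against both groups under every alternative that could test it. It was not testable where a probe had to exceed the median on all 12 arrays.

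Cldn11, the claudin of myelin tight junctions (chromosome 3), was well above the median on every array. It read 12.21, 11.36, 11.59 and 10.89 in A1G primary replicates, 11.32, 11.82, 12.11 and 14.38 in metastatic replicates and 11.48, 10.99, 12.63 and 10.50 in Ptch1het replicates. The groups overlapped, since 3 of the 4 metastatic arrays fell inside the primary range. Its differences of 0.90 (adjusted p = 0.467) and 1.01 (adjusted p = 0.295) did not pass in limma. Genes of meningeal fibroblasts and arachnoid, a second source of Cldn11, rose against A1G primary tumours in 7 of 10 tested of 11 listed (background 4.44%), with a mean signal per array of 10.10 to 10.65 in metastatic and 7.77 to 8.53 in A1G primary tumours. Their part in the level of Cldn11 was not tested.

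By its member probes, neither enzyme passed in any comparison of the reported fit. A probe under Cnp1, an older symbol of Cnp, did pass against Ptch1het tumours (0.94, adjusted p = 0.0130 in limma) and is described at the end. Cnp (chromosome 11), the phosphodiesterase of non-compact myelin, read 9.32, 9.64, 8.85 and 9.02 in A1G primary replicates, 9.20, 9.65, 8.87 and 11.11 in metastatic replicates and 7.72, 9.06, 8.91 and 7.28 in Ptch1het replicates. Metastatic replicates 1 to 3 lay almost on the primary values of the same number. Its difference was 0.50 against A1G primary (adjusted p = 0.632) and 1.47 against Ptch1het tumours (adjusted p = 0.0722, and 0.0472 without metastatic replicate 3), and its other probe differed by 0.036 and 0.18. Ugt8a (chromosome 3), which makes the galactolipids of myelin, read 9.30, 8.97, 8.73 and 8.79 in A1G primary replicates, 9.17, 9.37, 9.57 and 10.85 in metastatic replicates and 8.26, 8.34, 9.48 and 8.03 in Ptch1het replicates. Each of its groups overlapped the next. Its differences were 0.79 (adjusted p = 0.279) and 1.22 (adjusted p = 0.0566), the second passing without metastatic replicate 1 (0.0436) or Ptch1het replicate 3 (0.0189).

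Between the A1G primary and Ptch1het groups, 0 of 7 tested members passed in limma, where 0.0359% of all genes passed. An unadjusted p under 0.05 was found for 0 of 7, and for 2198 of all 16725 tested genes. The differences of the members ranged from -0.44 for Mal to 0.97 for Cnp, with a median of 0.42 where all genes had -0.027. By probe 0 of 15 passed, against 0.0245% of all tested probes. The groups did not overlap for 0 of 7, where 6.74% of all genes did not overlap. The median was -0.078 without primary replicate 1 and 0.74 without Ptch1het replicate 3. By the brightest probes, the order of the group means was metastatic, A1G primary, Ptch1het for every tested member except Mal, for which Ptch1het came before A1G primary. Some other tested probes of Mbp, and the other tested probes of Mag and Mobp, did not keep this order.

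Single arrays set much of this spread, and whether they differ by tumour or for technical reasons was not tested. Metastatic replicate 4 was the highest metastatic array for 7 of 7 tested members, A1G primary replicate 1 the highest primary array for 6 of 7, and Ptch1het replicate 3 the highest of its group for 5 of 7. The mean signal of the 7 members was 10.16 in primary replicate 1, against 8.44 to 8.84 in the other primary arrays. It was 12.44 in metastatic replicate 4 against 9.93 to 10.25 in the other metastases, and 9.98 in Ptch1het replicate 3 against 8.15 to 8.22 in the rest of its group. Primary replicate 1 thus lay within the range of metastatic replicates 1 to 3. The Schwann cell genes did not share this order, since the mean of the 15 listed was 7.50 in primary replicate 1, 7.52 in Ptch1het replicate 3 and 9.38 in metastatic replicate 4, the lowest of the metastases. Other lists were high in metastatic replicate 4 as well. Its mean of the 9 tested astrocyte genes was 11.70, against 9.46 to 10.14 in the other metastases. Among the metastases it was also highest for other mature oligodendrocyte genes (9.94), transcription factors of the lineage (9.14) and meningeal genes (10.65). For sensory neuron genes it was lowest.

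**Figure D4:**
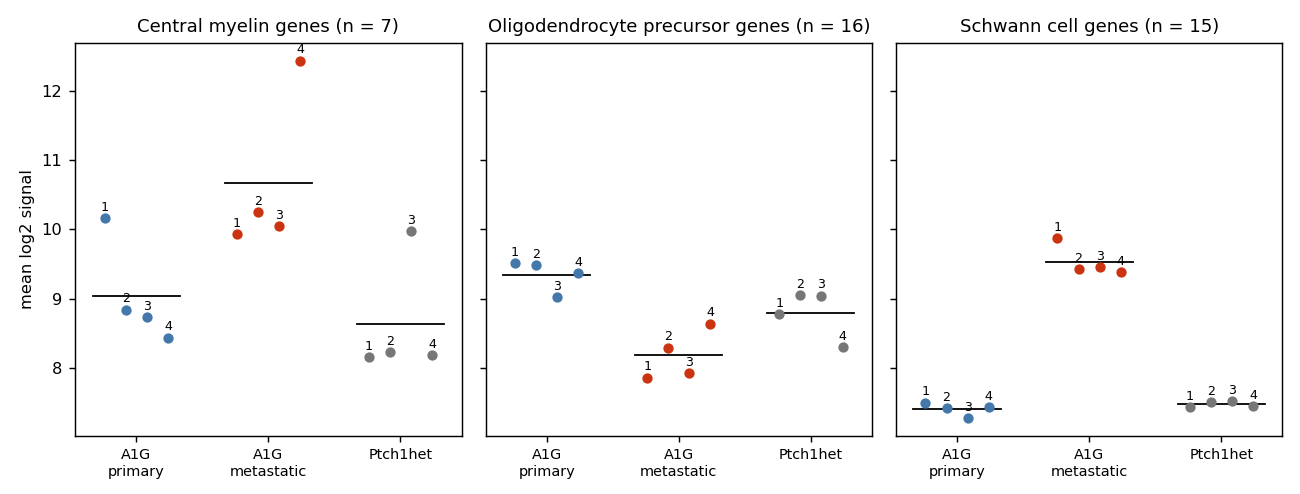
Mean log2 signal (vertical axis) of the 7 tested central myelin genes, the 16 tested oligodendrocyte precursor genes and all 15 listed Schwann cell genes in each array, by group (horizontal axis), with replicate numbers and group means as bars. Metastatic replicate 4 is highest for myelin genes at 12.44, precursor genes are lower in all metastatic than in all A1G primary tumours, and Schwann cell genes separate the metastatic tumours from all others.

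Likeness between profiles was measured as the root mean square difference of log2 signals over 12 arrays, each profile centred on its own mean, so that a smaller value means a closer profile. The closest members were Cldn11 and Ugt8a (0.42), followed by Cnp and Ugt8a (0.49), Cnp and Cldn11 (0.70) and Mbp and Mag (0.72), whereas Mobp was nearest to Cldn11 (0.88) and Mal to Ugt8a (0.88). Genes outside the set with a profile near the mean member profile included Fa2h (0.54), Hapln4 (0.56), Ppp1r1b (0.57), Faim2 (0.61) and Pdlim2 (0.61). Mbp itself lay 1.24 from that mean profile, at rank 6237 of 16725 tested genes, and Mobp lay 0.87 from it, at rank 143. The profiles were centred but not scaled, so the size of a gene's swings counts as well as their pattern. A small value therefore does not by itself show a shared pattern. These 12 points share their arrays and normalization, and no test was made of likeness.

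Other genes of mature oligodendrocytes mostly did not pass. Of 27 listed, 22 were tested. Lpar1, a lysophosphatidic acid receptor, was the 1 gene that rose against A1G primary tumours, by 1.12 (adjusted p = 0.00363), and 1 of 22 is near the 4.44% of all genes called higher. Fa2h, the hydroxylase of myelin lipids, differed by 1.35 (adjusted p = 0.0768), and passed with only the 2 groups in the fit (0.0406) and with the replicate block as well (0.0169). The tetraspanin gene Tspan2 differed by 1.18 (adjusted p = 0.0541, and 0.0428 with only the 2 groups and the block). Against Ptch1het tumours 4 of 22 rose in limma, where 5.99% of all genes were called higher. These were Fa2h by 2.17 (adjusted p = 0.00508), the sulfatide-making Gal3st1 by 1.45 (0.0378), Tspan2 by 1.16 (0.0400) and Lpar1 by 0.68 (0.0469), of which Gal3st1 was named after its values were seen. The calls of Tspan2 and Lpar1 against Ptch1het tumours were lost when single arrays were left out, with adjusted p of up to 0.112 and 0.128. The median difference over the 22 was 0.23 and 0.12.

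Oligodendrocyte precursor genes went the other way. Of 16 tested of 18 listed, 9 fell in metastatic against A1G primary tumours and 0 rose, with a median difference of -1.17, where 0.706% of all genes were called lower. Cspg5, a brain chondroitin sulfate proteoglycan, read 10.47, 11.001, 9.68 and 10.60 in A1G primary replicates and 7.13, 8.30, 7.31 and 8.98 in metastatic replicates, and fell by 2.51 (SE 0.39, adjusted p = 0.00160). Lhfpl3 fell by 1.61 (adjusted p = 0.00170), the AMPA receptor auxiliary subunit gene Cacng4 by 1.38 (0.00433) and the sialidase gene Neu4 by 1.06 (0.00253). For these 4 genes every metastatic array lay below every A1G primary array. They were named for the smallest p in this comparison, so their separation follows largely from that choice. Over the list, the groups did not overlap for 10 of 16 genes, where 13% of all genes did not overlap. The other 5 genes that fell, named after their values were seen, were Gpr17, Matn4, Scrg1, Ptprz1 and Cspg4. Pdgfra, the growth factor receptor of precursors and also of meningeal fibroblasts, differed by -0.40 (adjusted p = 0.361). Astrocyte genes held 1 fall among 9 tested of 10 listed, Slc1a3 by 1.32 (adjusted p = 0.0425, and up to 0.137 when single arrays were left out). The gap junction gene Gja1 differed in the other direction, by 1.44 without overlap of the groups (adjusted p = 0.0923, and 0.0239 with only the 2 groups and the replicate block). The water channel gene Aqp4 differed by -2.40 (adjusted p = 0.228), and by -3.52 without metastatic replicate 4 (adjusted p = 0.0167).

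Against Ptch1het tumours 5 of the 16 precursor genes fell and 0 rose, with a median of -0.60, where 3.31% of all genes were called lower. This count ranged from 1, without metastatic replicate 2 or Ptch1het replicate 1, to 6 when single arrays were left out. The number of all genes called in this comparison also varied with the array left out, from 749 to 1580. Cspg5 fell by 2.13 (adjusted p = 0.00500), and Neu4 differed by -0.24 (adjusted p = 0.407). Between A1G primary and Ptch1het tumours 0 of 16 passed in limma, where 0.0359% of all genes passed. An unadjusted p under 0.05 was found for 6 of the 16, and for 2198 of all 16725 tested genes. The mean precursor signal per array was 7.86 to 8.64 in metastatic, 9.02 to 9.51 in A1G primary and 8.30 to 9.05 in Ptch1het tumours. In metastatic replicate 4, which had the highest myelin mean, the precursor mean of 8.64 was also the highest of the 4 metastases.

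Of the transcription factors of the lineage, 8 of 11 listed were tested. Nkx2-2, which acts in oligodendrocyte specification and differentiation, fell by 2.07 against A1G primary tumours (adjusted p = 0.00859). Only 1 of its 4 metastatic arrays exceeded the array median, so the size of this fall was not resolved. Olig1 fell by 1.24 (adjusted p = 0.0181, and up to 0.0684 when primary replicate 2 or metastatic replicate 2 or 3 was left out). With only metastatic replicates 1 and 4 neither call held (adjusted p = 0.1305 for Nkx2-2 and 0.265 for Olig1). Olig2 differed by -0.64 (adjusted p = 0.210), and passed with only the 2 groups and the replicate block (0.0475) and without metastatic replicate 1 (0.0359). Tcf7l2 differed by 0.53 (adjusted p = 0.497). Sox10, needed in both oligodendrocytes and Schwann cells and named after its values were seen, differed by -0.059 against A1G primary tumours (adjusted p = 0.948). It rose by 1.26 against Ptch1het tumours (adjusted p = 0.0302). Myrf, the regulator of myelin genes for which the searched motif is named, did not pass the filter.

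**Figure D5:**
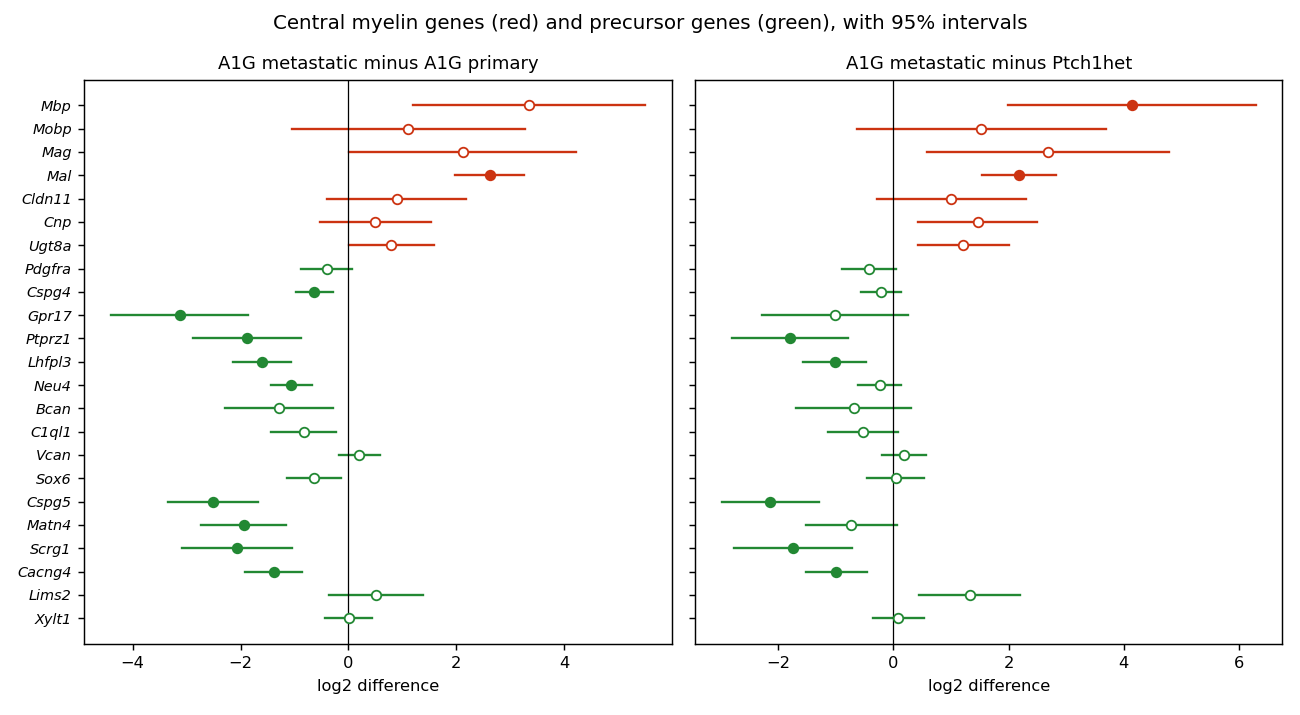
Log2 differences (horizontal axes) of the 7 tested central myelin genes (red) and the 16 tested precursor genes (green) for metastatic minus A1G primary tumours and metastatic minus Ptch1het tumours, which share the metastatic arrays. Lines are 95% intervals, and filled points have an adjusted p under 0.05. Each gene is shown by its brightest tested probe. Against A1G primary tumours all 7 myelin genes lie to the right of 0 with Mal filled, and 9 precursor genes are filled to the left.

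Markers of other tissues also moved with the metastatic group. The mean signal of all 16 listed Hox genes of the spinal cord and hindbrain was 7.82 to 8.44 in metastatic, 6.37 to 6.56 in A1G primary and 6.47 to 6.77 in Ptch1het tumours. Of the 12 tested, 7 exceeded the array median on the metastatic arrays only, and 1 of the other 5 rose against A1G primary tumours (background 4.44%). The mean of all 11 listed sensory neuron genes was 9.58 to 10.66 in metastatic, 6.62 to 7.06 in A1G primary and 6.69 to 7.27 in Ptch1het tumours. Of the 9 tested, 2 exceeded the median on the metastatic arrays only, and 6 of the other 7 rose against A1G primary tumours (background 4.44%). Metastatic replicate 4, the highest metastasis for the myelin genes, had the highest Hox mean of the metastases and the lowest sensory neuron mean. The part of these tissues in the myelin values was not tested.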

How the data were processed

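Total RNA of 12 mouse tumours was amplified to biotinylated cRNA and read on Illumina arrays, per the labels' protocols. As deposited, each probe has an intensity on a linear scale. The array medians of 187 and the minimum of 94.8 show that arrays had been scaled to each other and that background remained. The scaling method was not given in the sources used here. Gene symbols came from a second deposited table, whose 24 per-array columns match no sample label and were not used. Its header shows 2 chips of 6 arrays, and the chip of each sample is not given, so chip could not be tested as a batch.

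With limma 3.58.1 (R 4.3.3) the background was corrected by normexp at an offset of 50, arrays were quantile normalized, and log2 was taken. Probes above the array median on at least 4 of 12 arrays were kept (54.0%). One model with 3 groups was fitted to all kept probes, with 9 residual and 3.93 prior degrees of freedom, and p-values were adjusted over all of them. A gene was represented by its brightest kept probe. Symbols were current for 27740 probes, updated for 8037 and left as in the annotation for 9504. A fold is given as "at least" where a group lay at or below the array median throughout. The fit was tested on simulated data. Members, lists and rules were chosen with earlier results of these data known. Named genes were all members with every probe, up to 4 genes with the smallest p of each other list, and the 6 nearest profiles; exceptions are stated, and some named results are not reported here. Same-numbered metastatic and A1G primary arrays correlated after removal of group means (r of 0.45, 0.17, 0.20 and 0.28 for replicates 1 to 4 across genes). The replicate number was therefore used as a block in an alternative fit. Differently numbered arrays of these groups gave r from -0.32 to 0.16, so the value for replicate 2 hardly stood out. Same-numbered Ptch1het arrays gave r of 0.15, -0.018, 0.076 and 0.33 with A1G primary arrays. With metastatic arrays they gave -0.013, 0.034, -0.059 and 0.098.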

Additional observations from a re-analysis of the deposited data

Results flagged for a closer look

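In 2 of 21 tested groups (7 genes in 3 groups of 4 arrays) 1 array stood apart from the others by Dixon's ratio, the gap to the nearest array divided by the range of the group, above the 95% critical value for 4 arrays. Chance gives about 1 such group in 20. For Mag in A1G metastatic tumours the ratio was 0.871, since replicate 4 read 12.74 and the nearest array 10.26. For Mobp in A1G primary tumours it was 0.849, since replicate 1 read 9.30 and the nearest array 7.21.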

How the results depend on the processing

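Against A1G primary tumours the number of members that passed, 1 in the reported fit, was 0 when probes had to exceed the median on all 12 arrays, which left 4 members testable and Mal untested. It was 2, Mal and Mbp, with only the 2 groups compared, and 2 with a replicate block as well, the setting that uses the shared replicate numbers. When single arrays were left out it was 1 to 2, while all genes called in this comparison numbered 586 to 938. The median difference of the members was 2.11 with only metastatic replicates 1 and 4. Against Ptch1het tumours the count of 2 was 1 with the all-array filter, with the mean of the probes of a gene, with the replicate block, and with only metastatic replicates 1 and 4, and 1 to 4 with single arrays left out, the 4 being without Ptch1het replicate 3. With single arrays left out, all genes called against Ptch1het tumours numbered 749 to 1580. Replicate numbers did not pair the metastatic and Ptch1het groups. Between A1G primary and Ptch1het tumours the median ranged from -0.078 without primary replicate 1, a reversed sign, to 0.74 without Ptch1het replicate 3. Precursor genes called against A1G primary tumours were 4 under the all-array filter, which left 9 testable, and 3 with only metastatic replicates 1 and 4. Against Ptch1het tumours they were 2 under that filter, 2 with only the 2 groups, 1 with the block, 0 with metastatic replicates 1 and 4 alone, and 1 to 6 with single arrays left out. For the settings that only re-estimate the spread, the cause of a lost or gained call was not tested. The background settings, the omission of quantile normalization, the absence of a filter and 1 value per gene moved none of these counts by over 1.5 times. Signal close to the array median limits Mog, Mobp and Mal, and Mag in Ptch1het tumours. Their low arrays have no resolved level.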

Other observations

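A probe annotated to Cnp1, an older symbol of Cnp, was not counted as a member because its symbol differs. It read 7.29 ± 0.36 in A1G primary, 7.80 ± 0.17 in metastatic and 6.86 ± 0.32 in Ptch1het tumours (SD, n = 4). Its metastatic mean exceeded the Ptch1het mean by a log2 difference of 0.94 in limma (adjusted p = 0.0130), without overlap of the arrays, and differed by 0.51 from A1G primary tumours (adjusted p = 0.203).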
